A study of Homo sapiens with 12 samples.

Results

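Hypoxia was compared with normoxia in wildtype (WT) MDA-MB-231 cells, an established human line of triple-negative, mesenchymal breast cancer that grows in culture as 1 population of tumor cells. For the 4 hypoxia libraries, WT cells were kept in 1% O2 during 24 hr. The 4 normoxia libraries are of untreated WT cells of the same line. The labels give no transgene, drug or deletion for either group. They are 8 of the 12 libraries of the series, and the CCAR2 knockout libraries were not used here. All genes of the table that passed a filter on low counts are described, 21776 of 60664, and effect sizes are given for the 13954 with a mean of at least 1 CPM (edgeR's measure of the share of a gene in the TMM-scaled library) over the 8 libraries, called expressed from here on. A value in brackets after a left-out library or another setting is the log2 fold change there. The labels do not say whether the 4 libraries of a group came from separate cultures. The paper's methods speak of biological replicates, but in numbers that differ between passages and from the 4 libraries per group. The p-values therefore measure the spread between these libraries, which may be technical.

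When oxygen falls, the prolyl hydroxylases that mark the HIF-alpha proteins for destruction lose their substrate, HIF1α and HIF2α accumulate, pair with HIF1β and bind hypoxia response elements, whose core is ACGTG or GCGTG, near genes of glycolysis, angiogenesis, pH control and mitophagy. Low oxygen also acts through other routes, such as oxygen-dependent demethylases, mTORC1, the stress response kinases of translation and the redox state of mitochondria, and the comparison therefore takes in functions beyond the classic targets of HIF. Since these are bulk libraries, fewer cells in a given state and less RNA of a gene per cell cannot be told apart.

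The libraries carried the markers of the line. VIM, the intermediate filament of mesenchymal cells, stood at 5085 ± 84.7 CPM under normoxia and 4550.4 ± 275 CPM under hypoxia (SD, n = 4). All values of this form in CPM are mean ± SD over 4 libraries per group, and a log2 fold change ± is with its SE. All 10 mesenchymal markers were expressed, and ZEB1 alone of them was called. Of 12 luminal markers, 7 were expressed and none was called. PGR, TFF1 and CDH1 did not pass the count filter, and ESR1 was at 0.266 and 0.196 CPM under normoxia and hypoxia. KRT19 was abundant (622 ± 51.2 CPM under normoxia and 789 ± 62.5 CPM under hypoxia). Of 12 leukocyte, endothelial and stromal markers, 2 were expressed, PECAM1 and KDR, and the leukocyte gene PTPRC was at 0.204 and 0.0958 CPM. No marker of another cell type was called in either direction.

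The sum of the counts was between 153904088 and 213743693 in the normoxia libraries. In hypoxia it was 76384973, 83773680, 161509752 and 195621872 for replicates 1 to 4, so that the first pair was shallower than any normoxia library. Over all genes, hypoxia replicate 2 lay farthest from the other libraries of its group (root mean square log2 difference 0.350, against 0.193 to 0.273 for the others), and each result below that it decides is given without it. The sums are of estimated counts and are not read as numbers of reads.

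Many genes rose and fewer fell. Of the 21776 genes tested, 1270 (5.83%) were called higher under hypoxia and 312 (1.43%) lower, where a call needs an adjusted p under 0.05 in edgeR's quasi-likelihood test and a log2 fold change of 0.5 or more in size. The adjusted p alone was passed by 2518 genes in the higher direction (11.6%) and by 2609 in the lower direction (12.0%), so the lower side held many small differences. Among the expressed genes, 874 (6.26%) rose and 246 (1.76%) fell, and 2122 (15.2%) and 2543 (18.2%) passed the adjusted p alone. The median log2 fold change was 0.01 over all genes tested and -0.03 over the expressed genes. Among expressed genes, calls were most frequent at low level, while the 7822 genes under 1 CPM had 396 higher (5.06%) and 66 lower (0.844%). Between 1 and 10 CPM, 580 of 4277 genes rose (13.6%) and 127 fell (2.97%). From 10 to 100 CPM, 249 of 7363 rose and 106 fell, and at 100 CPM or more 45 of 2314 rose (1.95%) and 13 fell (0.562%). Abundant transcripts were thus mostly near their normoxia level, with the exceptions named below. Calls were repeated with other settings, namely with each library left out, with a smooth trend on the GC content of transcripts removed from each library, with other filters on low counts, with the counts divided by 4, with the tool DESeq2 and with the deeper pair of hypoxia libraries alone, and such a setting is named below only beside a value, call or count that it moves. The shares of all genes tested that were called, 5.83% higher and 1.43% lower, are the background for the counts of each list below, and for lists of expressed genes that passed the adjusted p alone the background is 15.2% higher and 18.2% lower.

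**Figure D1:**
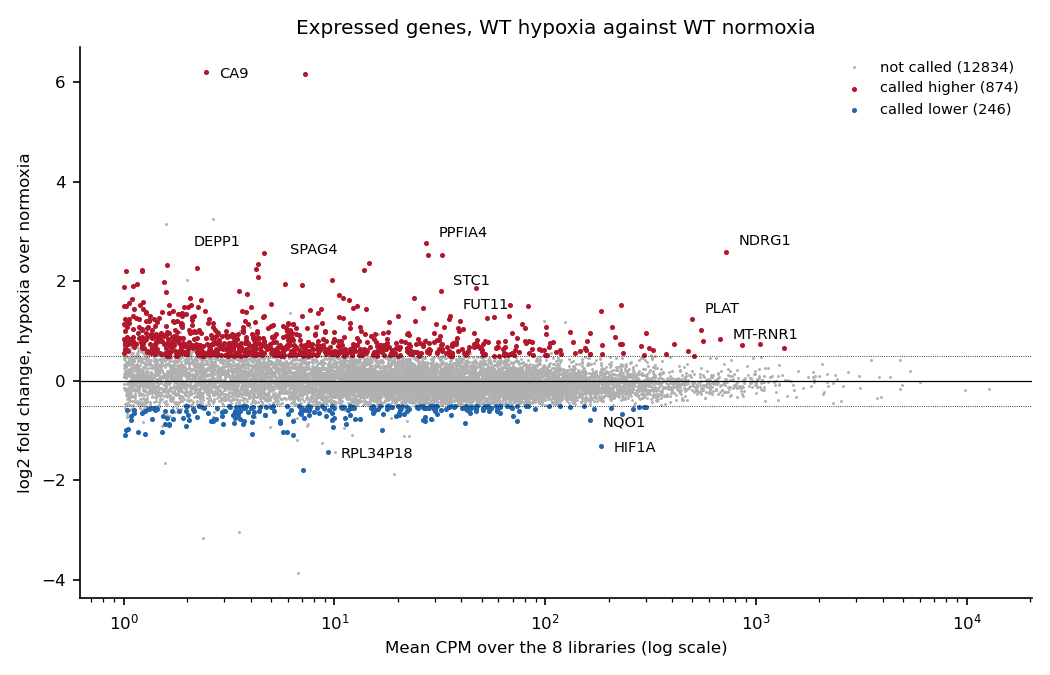
Each point is an expressed gene, with its mean CPM over the 8 libraries on a log scale against its log2 fold change of hypoxia over normoxia, and the dotted lines mark 0.5 and -0.5. CA9 stands at 6.21 and NDRG1 at 2.60, the 246 genes called lower reach less far from 0 than the 874 called higher, and above 100 CPM HIF1A is the lowest gene, at -1.32.

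The classic targets set the scale. Of a list of 40 such genes, 36 rose and none fell, with a median log2 fold change of 0.92. CA9, a membrane carbonic anhydrase, was at 0.0386, 0.0943, 0.0667 and 0.0592 CPM in the normoxia libraries and 4.92, 5.37, 4.38 and 4.76 CPM in the hypoxia libraries (log2 fold change 6.21, SE 0.22, edgeR adjusted p = 8.74e-08). Each hypoxia library was far above each normoxia library. The normoxia counts were only 7, 17, 14 and 9, so the size of this fold rests on few counts. NDRG1, a stress-induced gene linked to differentiation and metastasis, was at 178, 207, 198 and 234 CPM in the normoxia libraries and 1318, 1252, 1154 and 1219 CPM in the hypoxia libraries (log2 fold change 2.60, SE 0.08, edgeR adjusted p = 4.98e-08), the largest gain in CPM of any gene called. PPFIA4, a liprin scaffold protein, rose from 6.99 ± 1.23 to 47.4 ± 8.996 CPM. The members just above the fold limit were ADM and EGLN1, both at 0.52. Leaving out 1 library ended the call of ADM without normoxia replicate 1 or hypoxia replicate 2 (0.49). With the GC trend removed, ADM (0.41) was not called. With hypoxia replicates 3 and 4 only, ADM (0.47) was not called. With no filter, ADM (0.499) and EGLN1 (0.499) were not called.

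The windows upstream of the RefSeq starts of 4 genes are shown because all 4 genes rose and yet differ in the HIF core motif. The windows hold the 250 bases before the start of each gene in RefSeq (GRCh38.p14), 5′ to 3′ on its strand. Each ACGTG and GCGTG on either strand is in capitals, and distances are counted from the RefSeq start. CA9 is on the plus strand (chr9:35673678-35673927) and has 1 ACGTG, read on the other strand as CACGT, whose first base is 18 bases before the start. MIR210HG, the host gene of miR-210, is on the minus strand (chr11:568458-568707) and has 1 ACGTG at 170 bases and 1 GCGTG at 9 bases before the start. RASSF4, on the plus strand (chr10:44959552-44959801), has no ACGTG and 1 GCGTG at 153 bases, and DEPP1, on the minus strand (chr10:44978810-44979059), has neither. The gene positions given below are from another annotation, GENCODE, whose starts can differ. There RASSF4 starts earlier, at 44959407, so its window lies inside the gene span and is not upstream of it. CA9 starts at 35673856 there, so the end of its window lies inside the gene span. Which start these cells use was not tested.
CA9: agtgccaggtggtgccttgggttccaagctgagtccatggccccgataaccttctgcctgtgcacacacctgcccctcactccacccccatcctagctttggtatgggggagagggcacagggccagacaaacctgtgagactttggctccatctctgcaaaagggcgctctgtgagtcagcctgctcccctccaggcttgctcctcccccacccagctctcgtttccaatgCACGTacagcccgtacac
MIR210HG: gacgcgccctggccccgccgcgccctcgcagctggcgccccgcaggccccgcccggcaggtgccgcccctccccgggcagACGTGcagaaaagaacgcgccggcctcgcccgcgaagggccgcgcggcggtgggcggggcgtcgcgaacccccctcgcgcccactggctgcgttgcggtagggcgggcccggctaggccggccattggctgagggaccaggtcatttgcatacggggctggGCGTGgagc
RASSF4: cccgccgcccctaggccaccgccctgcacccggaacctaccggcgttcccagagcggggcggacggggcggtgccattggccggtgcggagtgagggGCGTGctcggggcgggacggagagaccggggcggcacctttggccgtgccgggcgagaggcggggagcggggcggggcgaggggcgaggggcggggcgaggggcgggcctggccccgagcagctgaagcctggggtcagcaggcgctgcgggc
DEPP1: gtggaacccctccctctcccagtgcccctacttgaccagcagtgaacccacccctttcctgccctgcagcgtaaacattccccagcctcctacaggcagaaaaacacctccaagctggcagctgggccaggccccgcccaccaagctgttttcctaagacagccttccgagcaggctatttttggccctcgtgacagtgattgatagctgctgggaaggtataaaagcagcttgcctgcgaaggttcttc
Of the 35116 promoters of the same length in that table, 18.5% held ACGTG on either strand, 32.2% held GCGTG and 43.2% held at least 1 of them, so a match is common, and the absence of one says only that these letters are not in this window. The share of called genes with a motif is not given, because fewer than 80% of the protein-coding genes called had a window in the table (76.9% of those higher and 77.9% of those lower).

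Outside the list of classic targets, the genes with the highest folds were of many kinds. DEPP1 (ENSG00000165507, chr10:44970981-44978810), a FOXO-induced regulator of autophagy, was at 1.15, 1.23, 1.39 and 1.56 CPM in the normoxia libraries and 8.33, 9.27, 6.91 and 7.28 CPM in the hypoxia libraries (log2 fold change 2.58, SE 0.14, edgeR adjusted p = 1.33e-06). SPAG4 (ENSG00000061656, chr20:35615892-35621049), a SUN-domain protein of the nuclear envelope, was at 3.97, 5.195, 4.300 and 5.52 CPM in the normoxia libraries and 24.3, 25.3, 22.7 and 25.9 CPM in the hypoxia libraries (log2 fold change 2.37, SE 0.11, edgeR adjusted p = 3.4e-07). RASSF4 (ENSG00000107551, chr10:44959407-44995891), a member of the RAS-association family, was at 4.44, 4.97, 4.85 and 5.24 CPM in the normoxia libraries and 21.2, 25.6, 21.6 and 22.9 CPM in the hypoxia libraries (log2 fold change 2.23, SE 0.09, edgeR adjusted p = 9.59e-08). For none of the 3 did any library of a group reach the range of the other. The span of DEPP1 lies within that of RASSF4, on the opposite strand. Whether the counting used strand is not given in the sources used here, and how far reads of either gene counted for the other was not tested. Positions here and below are those of GENCODE 29 on GRCh38, matched by identifier, since the build of the deposited table is not given in the sources used here. Kinase and enzyme genes among the 15 highest were CDK18 (0.532 ± 0.186 to 2.67 ± 0.271 CPM, log2 fold change 2.32 ± 0.24), a cyclin-dependent kinase of the PCTAIRE group, and RIMKLA (0.769 ± 0.381 to 3.69 ± 0.456 CPM, log2 fold change 2.27 ± 0.31), the ligase that makes N-acetyl-aspartyl-glutamate. KANK3 (0.434 ± 0.182 to 2.01 ± 0.0329 CPM, log2 fold change 2.20 ± 0.28) belongs to a family that links adhesions to the cortex. The secreted factors were STC1 (14.2 ± 2.12 to 49.6 ± 5.66 CPM, log2 fold change 1.81 ± 0.11), the calcium-regulating hormone stanniocalcin 1, C1QL1 (2.397 ± 0.819 to 9.25 ± 1.35 CPM, log2 fold change 1.95 ± 0.21), a C1q-like ligand, and WFDC10B (0.461 ± 0.221 to 1.74 ± 0.382 CPM, log2 fold change 1.91 ± 0.33). GPR146 (0.429 ± 0.156 to 1.57 ± 0.237 CPM, log2 fold change 1.88 ± 0.26) encodes an orphan receptor of the G protein-coupled family. In all of these the groups did not overlap, and the normoxia level was under 1 CPM for CDK18, RIMKLA, KANK3, WFDC10B and GPR146, where the fold rests on few counts.

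Noncoding transcripts were well represented near the top. MIR210HG was at 1.401, 1.89, 1.55 and 1.74 CPM in the normoxia libraries and 6.78, 6.42, 7.74 and 7.15 CPM in the hypoxia libraries (log2 fold change 2.09, SE 0.12, edgeR adjusted p = 2.24e-06). FER1L4, a transcribed pseudogene, rose from 1.43 ± 0.519 to 7.27 ± 0.662 CPM and LASTR from 0.478 ± 0.121 to 1.84 ± 0.0685 CPM. Of 17 cancer-associated long noncoding RNAs tested, 5 rose and none fell, namely MIR210HG, LUCAT1 (5.74 ± 1.305 to 17.8 ± 2.501 CPM, log2 fold change 1.63 ± 0.16), HIF1A-AS3 (6.69 ± 0.192 to 18.9 ± 1.99 CPM, log2 fold change 1.50 ± 0.08), UCA1 (9.05 ± 0.742 to 16.4 ± 0.537 CPM, log2 fold change 0.86 ± 0.08) and NEAT1 (141 ± 6.99 to 233 ± 24.8 CPM, log2 fold change 0.73 ± 0.08), the scaffold of paraspeckles; UCA1 and NEAT1 lie outside the naming rule and were chosen after their values were seen. The list's median, these 5 included, was -0.03 (0.13 with the GC trend removed). Of its other members, 4 passed the adjusted p alone, all of them lower, and the abundant GAS5 was at 0.08 (SE 0.10). By biotype, 47 of 347 expressed lincRNAs (13.5%) and 51 of 401 antisense genes (12.7%) rose, against 687 of 12188 protein-coding genes (5.64%). Pseudogenes were called in both directions, 44 higher and 26 lower of 621. Calls among expressed genes were most frequent between 1 and 10 CPM, and the part of level in these shares was not tested.

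Some of the strongest calls were processed pseudogenes, which are copies of other genes, their parents. The part that reads of the parent genes had in their values was not tested. RPSAP47 was at 1.62, 1.54, 1.42 and 1.29 CPM in the normoxia libraries and 2.900, 11.1, 6.78 and 7.298 CPM in the hypoxia libraries, and RPSAP9 at 1.54, 1.77, 1.48 and 1.46 CPM in the normoxia libraries and 2.75, 7.99, 5.59 and 5.64 CPM in the hypoxia libraries. Their hypoxia libraries were widely spread, although all were above normoxia. The parent RPSA was at 1899 ± 126 CPM under normoxia and 1761 ± 197 CPM under hypoxia (log2 fold change -0.11, SE 0.08) and was not called. In the other direction, RPL34P18 was at 13.5, 13.7, 15.1 and 12.02 CPM in the normoxia libraries and 8.69, 3.64, 3.95 and 4.05 CPM in the hypoxia libraries (log2 fold change -1.43, SE 0.24, edgeR adjusted p = 0.00197), with hypoxia replicate 1 above the other 3, while RPL34 had a log2 fold change of -0.15 (SE 0.10). CLIC4P3 and HMGN2P3 had log2 fold changes of -1.08 and -0.91, beside -0.20 and -0.39 for CLIC4 and HMGN2, which were not called. The parents were chosen after the pseudogenes' values were seen.

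After RPL34P18, the lowest log2 fold change among expressed genes called with a symbol and no overlap between groups was that of HIF1A (ENSG00000100644, chr14:61695513-61748259), which encodes the HIF1α subunit. It was at 279, 257, 254 and 259 CPM in the normoxia libraries and 109, 101, 112 and 99.1 CPM in the hypoxia libraries (log2 fold change -1.32, SE 0.06, edgeR adjusted p = 2.93e-07). The groups were far apart, at 40.2% of the normoxia level in hypoxia. HIF1A-AS3, annotated on the opposite strand and overlapping HIF1A, moved the other way, at 6.62, 6.73, 6.94 and 6.48 CPM in the normoxia libraries and 17.5, 20.9, 16.99 and 20.4 CPM in the hypoxia libraries (log2 fold change 1.50, SE 0.08, edgeR adjusted p = 2e-06), and whether the counting used strand is not given in the sources used here. EPAS1, which encodes HIF2α, was not called (-0.20, SE 0.07). The other losses among the 15 lowest were of several kinds. MMP16 (7.68 ± 0.685 to 3.77 ± 0.738 CPM, log2 fold change -1.02 ± 0.14) is a membrane-anchored matrix metalloprotease, TNFSF18 (1.39 ± 0.148 to 0.711 ± 0.0997 CPM, log2 fold change -0.97 ± 0.17) the ligand of the receptor GITR, SLC43A2 (12.9 ± 0.766 to 6.79 ± 0.6705 CPM, log2 fold change -0.93 ± 0.09) a carrier of large neutral amino acids, SLC16A14 (1.57 ± 0.2403 to 0.756 ± 0.2604 CPM, log2 fold change -1.04 ± 0.25) an orphan member of the monocarboxylate family, and GALNT3 (14.7 ± 1.01 to 8.01 ± 0.777 CPM, log2 fold change -0.87 ± 0.09) an enzyme that starts mucin-type O-glycosylation. RAB27B (8.02 ± 0.4397 to 3.93 ± 0.223 CPM, log2 fold change -1.03 ± 0.09) is a GTPase of vesicle secretion. EVI2A and EVI2B, neighbors within an intron of NF1 on chr17, fell together, EVI2A from 22.4 ± 0.828 to 11.2 ± 2.201 CPM and EVI2B from 8.68 ± 0.846 to 4.07 ± 0.974 CPM. MKX (5.53 ± 0.751 to 2.62 ± 0.327 CPM, log2 fold change -1.08 ± 0.13) is a homeobox factor of tendon, and GBP4 (1.36 ± 0.192 to 0.6903 ± 0.145 CPM, log2 fold change -0.98 ± 0.20) an interferon-induced GTPase. In each of these 10 genes every hypoxia library lay below every normoxia library.

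**Figure D2:**
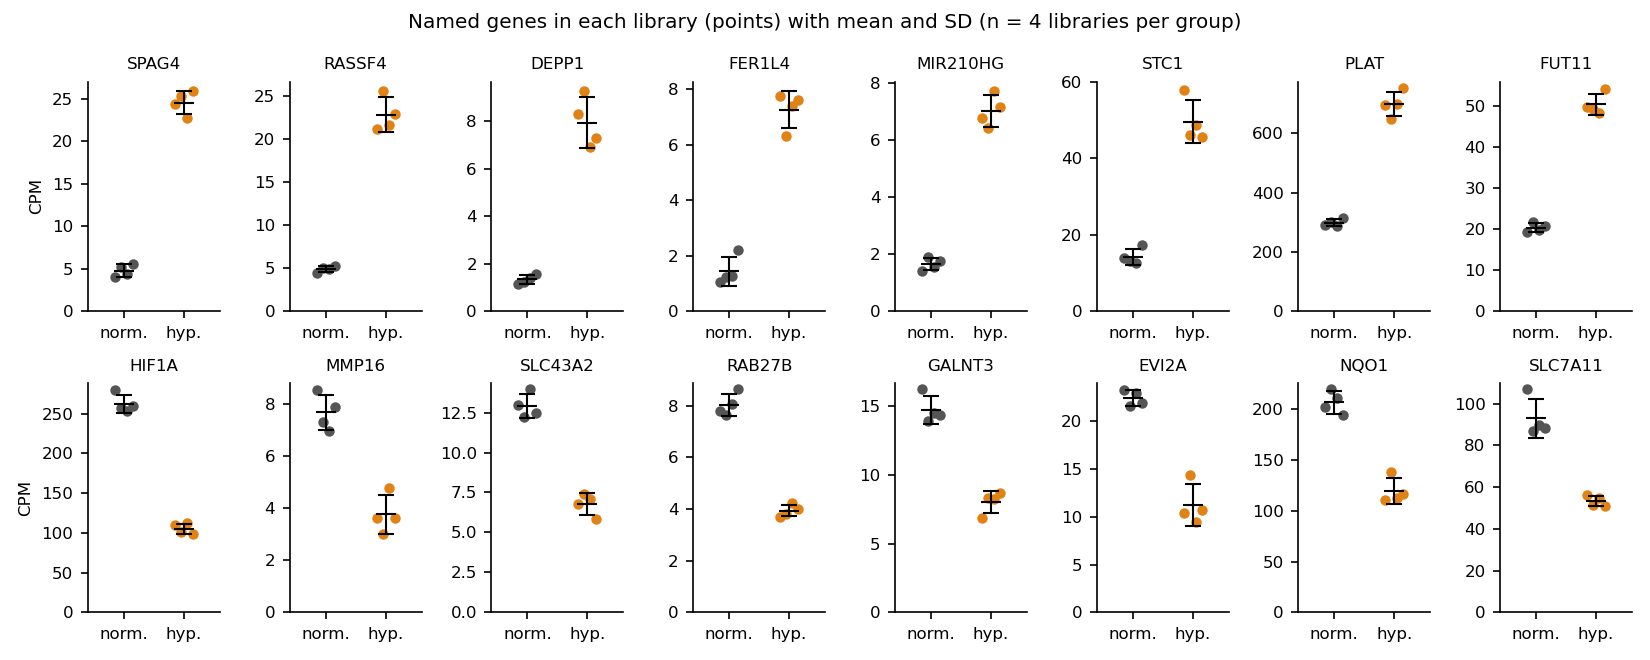
CPM of 16 genes in each of the 8 libraries (points), with mean and SD as bars (n = 4 libraries per group) and each axis starting at 0. The upper row shows genes that rose and the lower row genes that fell, and in none of the 16 do the groups overlap; PLAT goes from 298 to 699.8 CPM on average, and HIF1A from 262 to 105 CPM.

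By the gain in CPM rather than the fold, the genes called were led by NDRG1, ALDOA, LDHA, LAMA5, PLAT, MT-RNR1, PGK1 and ERRFI1. Some genes that were not called gained as much or more, such as MT-RNR2 (4138 to 5495 CPM), above NDRG1, and ENO1 (3010 to 3994 CPM), above ALDOA. PLAT, tissue plasminogen activator, was at 289.5, 299.5, 287 and 314 CPM in the normoxia libraries and 696, 649, 701 and 752 CPM in the hypoxia libraries (log2 fold change 1.23, SE 0.06, edgeR adjusted p = 3.97e-07). ERRFI1, the feedback inhibitor of the EGF receptor, was at 409, 408, 391 and 415 CPM in the normoxia libraries and 729.8, 726, 692 and 695 CPM in the hypoxia libraries (log2 fold change 0.81, SE 0.05, edgeR adjusted p = 2.24e-06). Neither gene's groups overlapped, and both had small spreads. Abundant genes that were not called, such as MT-CO1 (13436 to 12030 CPM) and NPM1 (1732 to 1372 CPM), lost more CPM than those that follow. Among genes called, the largest losses in CPM after HIF1A were MBNL1 (355 ± 21.5 to 247 ± 19.4 CPM, log2 fold change -0.53 ± 0.07), a regulator of alternative splicing, ODC1 (347 ± 18.00 to 241 ± 27.9 CPM, log2 fold change -0.53 ± 0.08), the first enzyme of polyamine synthesis, and PEG10 (284 ± 23.2 to 179 ± 15.8 CPM, log2 fold change -0.67 ± 0.08), a retrotransposon-derived imprinted gene. Further such losses were those of TNPO1 (311 ± 23.5 to 211 ± 20.7 CPM, log2 fold change -0.56 ± 0.08), a nuclear import receptor, NQO1 (207 ± 11.3 to 119.8 ± 12.6 CPM, log2 fold change -0.79 ± 0.07) and GMFB (245 ± 13.5 to 167 ± 15.5 CPM, log2 fold change -0.56 ± 0.07). MTND2P28, a nuclear copy of mitochondrial MT-ND2, had a log2 fold change of -0.53, beside -0.44 for MT-ND2. The call did not survive the loss of 1 library for MBNL1 without normoxia replicate 1 or hypoxia replicate 4 (-0.48), ODC1 without hypoxia replicates 3 and 4 (-0.495 to -0.49) and MTND2P28 without normoxia replicate 1 or hypoxia replicates 3 and 4 (-0.49 to -0.46). MBNL1 (-0.36), ODC1 (-0.495), TNPO1 (-0.39), GMFB (-0.35) and MTND2P28 (-0.38) were not called with the GC trend removed.

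Some genes of glycolysis and lactate export rose. Of 19 genes of glycolysis and glycogen outside the classic list, 6 rose and none fell, against 5.83% and 1.43% of all genes tested, and 13 passed the adjusted p alone, all of them higher, with a median of 0.46; the per-library medians of the log2 ratio to the normoxia mean ran from -0.06 to 0.01 in the normoxia libraries and from 0.31 to 0.50 in the hypoxia libraries. PFKL, the liver form of phosphofructokinase, was at 135, 151, 157 and 161 CPM in the normoxia libraries and 268, 271, 279 and 292 CPM in the hypoxia libraries (log2 fold change 0.88, SE 0.06, edgeR adjusted p = 7.87e-06). SLC16A3 (307 ± 32.6 to 510.3 ± 17.6 CPM, log2 fold change 0.73 ± 0.07) is the lactate exporter MCT4, and PGM1 (78.3 ± 3.63 to 132 ± 9.45 CPM, log2 fold change 0.75 ± 0.06) links glycogen to glycolysis. GAPDH, the most abundant member, was at 4987 ± 141 CPM under normoxia and 5744 ± 547 CPM under hypoxia and was not called (0.20, edgeR adjusted p = 0.0592, and 0.12 with the GC trend removed). ENO1, a glycolysis gene that is the most abundant member of the classic list, passed the adjusted p but not the fold (0.41). Without 1 of the libraries, the call was lost for GPI without normoxia replicate 1 or hypoxia replicates 2 and 4 (0.49 to 0.499). After the GC trend was removed, GPI (0.41) was not called. GPI (0.48) was not called with no filter.

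Nuclear genes of respiration held few calls. None of 37 subunits of complex I was called (median -0.02), and of 21 genes of the TCA cycle only IDH2, the mitochondrial NADP-dependent isocitrate dehydrogenase, rose, at 5.87, 6.63, 6.47 and 7.69 CPM in the normoxia libraries and 12.9, 13.1, 13.3 and 13.4 CPM in the hypoxia libraries (log2 fold change 0.98, SE 0.09, edgeR adjusted p = 5.29e-05). Without normoxia replicate 3, hypoxia replicate 1 or hypoxia replicate 3, or with the GC trend removed, 1 complex I gene was called higher. Among 15 genes of complex IV and its exchange, LONP1 (243 ± 10.4 to 348 ± 11.2 CPM, log2 fold change 0.52 ± 0.05), the matrix protease, was alone in rising. A library left out decided the call of LONP1 without normoxia replicate 1 (0.49). LONP1 (0.37) was not called with the GC trend removed. With no filter, LONP1 (0.5) was not called. Transcripts of the mitochondrial genome gave calls in both directions. None of the 13 genes for proteins was called, with a median of -0.13 (0.05 with the GC trend removed), and MT-CO1, the most abundant, was at 13436 ± 245 CPM under normoxia and 12030.0 ± 1389.9 CPM under hypoxia. The 12S ribosomal RNA, MT-RNR1, was at 497, 508, 482 and 450.3 CPM in the normoxia libraries and 809, 1077, 717 and 848 CPM in the hypoxia libraries (log2 fold change 0.83, SE 0.11, edgeR adjusted p = 0.000403), and its groups did not overlap. The 16S ribosomal RNA, MT-RNR2, had a smaller difference (0.41, SE 0.10) and missed the fold limit. Of 19 expressed mitochondrial tRNA genes, 8 were called higher and 2 lower; these genes were looked at after their values were seen. MT-TF (1.08 ± 0.144 to 3.103 ± 0.537 CPM, log2 fold change 1.52 ± 0.16), which lies directly before MT-RNR1, and MT-TA (21.4 ± 2.77 to 44.9 ± 10.4 CPM, log2 fold change 1.07 ± 0.15) were among the higher. MT-TL1 (53.7 ± 3.41 to 29.6 ± 1.95 CPM, log2 fold change -0.86 ± 0.07), which follows MT-RNR2, and MT-TI (3.45 ± 0.108 to 2.03 ± 0.215 CPM, log2 fold change -0.77 ± 0.11) were the lower pair. Mitochondrial transcripts are cut from long precursors and the tRNAs carry no poly-A tail, so that in libraries made from poly-A RNA, as the methods state, these values mix abundance with capture, and the part of capture was not tested. Without hypoxia replicate 2, 2 of the genes for proteins were called lower. The limits were no longer passed by MT-TC without normoxia replicates 2 and 4 or hypoxia replicates 2 and 4 (0.45 to 0.497), MT-TG without normoxia replicates 1, 2 and 4 or hypoxia replicate 2 (0.32 to 0.55) and MT-TT without normoxia replicates 1, 2 and 4 or hypoxia replicates 2 and 4 (0.41 to 0.59). MT-TG (0.34) was not called with hypoxia replicates 3 and 4 only. MT-TG (0.49) was not called with no filter.

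Genes of protein synthesis and quality control held no call. Of 85 cytosolic ribosomal proteins none was called, with a median of -0.03, although leaving out 1 library gave 1 member higher without hypoxia replicate 3, 4 members higher without normoxia replicate 3 or hypoxia replicate 1 and 1 member lower without hypoxia replicate 2. Of 30 genes of ribosome biogenesis none passed the fold limit, but 16 passed the adjusted p alone in the lower direction, against 18.2% of all expressed genes, and none in the higher, with a median of -0.20 (-0.13 with the GC trend removed). NPM1, nucleophosmin, was at 1723, 1807, 1814 and 1585 CPM in the normoxia libraries and 1260.2, 1715, 1246 and 1267 CPM in the hypoxia libraries, and hypoxia replicate 2 overlapped the normoxia range. Its log2 fold change was -0.34 (edgeR adjusted p = 0.0333), and -0.17 (adjusted p = 0.182) with the GC trend removed. The median was -0.12 for 20 tRNA synthetases, -0.15 for 37 proteasome subunits and -0.18 for 25 cytosolic chaperones, with no call in any of the 3 lists and with 4, 10 and 7 members past the adjusted p alone, all of them lower. These medians went to -0.07, -0.08 and -0.10 with the GC trend removed. HSP90AB1 was the most abundant chaperone, at 2258 ± 85.98 CPM under normoxia and 1933 ± 136 CPM under hypoxia (-0.22, SE 0.06), and at -0.15 (edgeR adjusted p = 0.0681) with the GC trend removed. The counts of these 3 lists are to be read against 18.2% of all expressed genes past the adjusted p alone in the lower direction.

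The stress responses that ATF4, XBP1 and ATF6 drive held 1 call in the higher direction at 24 hr. None of 21 genes of the endoplasmic reticulum response was called (median -0.09), with CALR at 965 ± 41.4 CPM under normoxia and 937 ± 24.8 CPM under hypoxia. Of 20 genes of the integrated stress response, which ATF4 activates when translation is held back, 13 passed the adjusted p alone in the lower direction, 2 were called lower and 1 higher, and the median was -0.27 (-0.25, with 4 called lower, with the GC trend removed). SLC7A11, the cystine carrier, was at 107, 86.7, 89.9 and 88.2 CPM in the normoxia libraries and 56.04, 51.5, 55.01 and 50.8 CPM in the hypoxia libraries (log2 fold change -0.80, SE 0.07, edgeR adjusted p = 4.97e-05), with normoxia replicate 1 above the other 3 of its group and no overlap between groups. GDF15 (4.84 ± 0.673 to 3.37 ± 0.547 CPM, log2 fold change -0.53 ± 0.15), a stress cytokine, had overlapping groups, and VLDLR (15.9 ± 1.17 to 27.2 ± 2.26 CPM, log2 fold change 0.77 ± 0.08), the receptor of very low density lipoprotein and the member that rose, is also a known HIF target. Left out in turn, single libraries ended the call of GDF15 without normoxia replicates 2, 3 and 4 or hypoxia replicates 2 and 4 (-0.503 to -0.46). Targets of NRF2, the factor of the antioxidant response, also held calls in the lower direction alone: of 23, 2 fell, none rose and 9 passed the adjusted p alone in the lower direction (median -0.20). NQO1, the quinone reductase, was at 202, 220.4, 211 and 194 CPM in the normoxia libraries and 111, 138, 113 and 117 CPM in the hypoxia libraries (log2 fold change -0.79, SE 0.07, edgeR adjusted p = 6.62e-05), and GCLM (74.97 ± 4.45 to 47.6 ± 4.33 CPM, log2 fold change -0.66 ± 0.07) makes glutathione together with GCLC. The per-library medians of the list ran from -0.05 to 0.05 in the normoxia libraries, and hypoxia replicate 2, at -0.02, lay in that range. Without hypoxia replicate 2, 5 members were lower. FTL, the light chain of ferritin, was the most abundant at 1437 ± 70.9 CPM under normoxia and 1098 ± 185 CPM under hypoxia and was called lower only without hypoxia replicate 2 (-0.51). SQSTM1 (204 ± 9.58 to 138 ± 7.38 CPM, log2 fold change -0.56 ± 0.06), the autophagy receptor p62 and itself an NRF2 target, fell, and of 27 genes of lysosome and autophagy the other call was CTSF (13.1 ± 1.37 to 18.8 ± 1.14 CPM, log2 fold change 0.51 ± 0.08). Leaving out 1 library ended the call of CTSF without normoxia replicate 1 or hypoxia replicate 2 (0.45 to 0.47). With the GC trend removed, CTSF (0.45) was not called. With no filter, CTSF (0.49) was not called. None of 13 genes of iron and heme was called. Of 8 metallothionein genes tested, MT1A was called higher at a low level (1.13 ± 0.163 CPM under normoxia and 1.75 ± 0.278 CPM under hypoxia), while MT2A, the most abundant, was at 718 ± 92.1 CPM under normoxia and 705 ± 85.3 CPM under hypoxia. The call did not survive the loss of 1 library for MT1A without normoxia replicates 1, 3 and 4 or hypoxia replicate 4 (0.52 to 0.61).

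Lipid genes held 1 call. None of 24 genes of sterol synthesis was called (median -0.11), and without hypoxia replicate 2 there was 1, in the lower direction. Of 26 genes of fatty acid metabolism, ACADVL (306 ± 14.9 to 442 ± 26.4 CPM, log2 fold change 0.53 ± 0.06), which starts the oxidation of very long chains, was called, and FASN, fatty acid synthase, was at 607 ± 56.2 CPM under normoxia and 585 ± 73.6 CPM under hypoxia with overlapping groups. Without 1 of the libraries, the call was lost for ACADVL without normoxia replicate 1 or hypoxia replicate 4 (0.496 to 0.497). ACADVL (0.42) was not called with the GC trend removed.

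The cell cycle lists held no call. None of 25 genes of G1/S and replication was called (median -0.01, and 0.06 with the GC trend removed), and CCND1 was at 959 ± 18.8 CPM under normoxia and 895 ± 22.4 CPM under hypoxia. None of 25 genes of G2/M and mitosis passed the fold limit either, but 16 of them passed the adjusted p alone, all lower, against 18.2% of expressed genes, and the median was -0.30. The per-library medians of this list ran from -0.06 to 0.04 in the normoxia libraries and from -0.35 to -0.23 in the hypoxia libraries, with no overlap. The median of the list was -0.15 with the GC trend removed, and without hypoxia replicate 2, 1 member was called lower. TOP2A, the topoisomerase of chromosome condensation, was at 897, 807, 815 and 794 CPM in the normoxia libraries and 696, 631, 710.5 and 652 CPM in the hypoxia libraries (log2 fold change -0.30, SE 0.06, edgeR adjusted p = 0.00447). Its log2 fold change was -0.08 (edgeR adjusted p = 0.412) with the GC trend removed and no longer passed. None of 19 growth arrest genes and none of 24 apoptosis genes was called, and of 32 DNA repair genes DDB2 (14.9 ± 0.885 to 22.1 ± 1.37 CPM, log2 fold change 0.57 ± 0.07), a sensor of ultraviolet damage, was called higher. In that list 10 members passed the adjusted p alone in the higher direction and 6 in the lower, and with the GC trend removed 3 were called higher and the median went from -0.02 to 0.10.

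Replication-dependent histone genes had the most calls in the lower direction of all the lists drawn here. Of 66 in the table, 41 passed the count filter, 10 fell and none rose, against 1.43% and 5.83% of all genes tested, with a median of -0.47 (-0.49 with the GC trend removed, when 12 fell). H2AC6 was at 32.96, 37.1, 32.5 and 31.8 CPM in the normoxia libraries and 19.9, 21.5, 19.7 and 19.5 CPM in the hypoxia libraries (log2 fold change -0.74, SE 0.06, edgeR adjusted p = 3.99e-05). H2BC12, the most abundant, was at 105, 112, 105 and 106 CPM in the normoxia libraries and 69.2, 78.8, 66.6 and 72.6 CPM in the hypoxia libraries (log2 fold change -0.57, SE 0.06, edgeR adjusted p = 0.000114). In both genes the lowest normoxia library was above the highest hypoxia library, and H2BC4 (2.13 ± 0.222 to 1.14 ± 0.165 CPM, log2 fold change -0.89 ± 0.15) and H3C10 (2.41 ± 0.347 to 1.43 ± 0.181 CPM, log2 fold change -0.76 ± 0.15) were likewise apart. These mRNAs peak in S phase and end in a stem-loop in place of a poly-A tail, so poly-A libraries sample the part that is polyadenylated, and a change in that part and a change in the whole cannot be told apart. The copies are also near identical, which makes the value of any single gene uncertain. Of members outside the naming rule, H4C8 lost its call without normoxia replicate 1 or 2 or hypoxia replicate 1 or 3 (-0.49 to -0.47). H2BC21 lost it without normoxia replicate 1 or 4 or hypoxia replicate 2 (-0.54 to -0.44), and H1-4 without normoxia replicate 2 (-0.48). H4C8 (-0.40) and H2BC21 (-0.47) were not called with the GC trend removed. H4C8 was also lost with at least 10 counts in every library (-0.49) and with counts divided by 4 (-0.48).

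**Figure D3:**
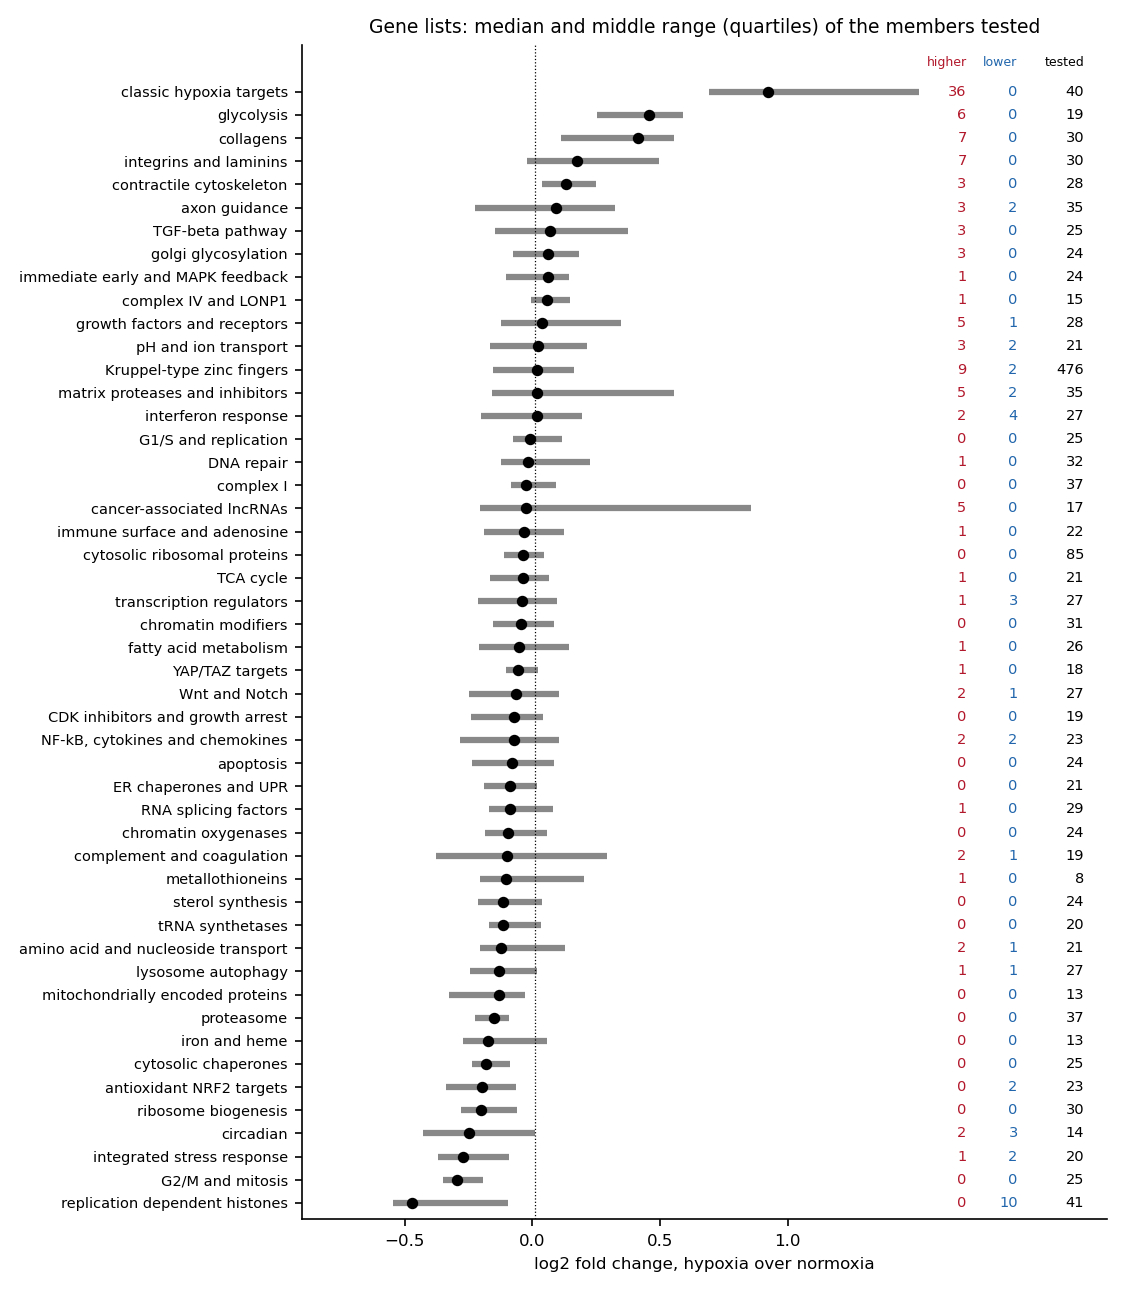
Median (point) and quartiles (bar) of the log2 fold changes of the members tested in each of 49 lists, with the numbers called higher and lower and the number tested at the right, and a dotted line at the median of all genes tested, 0.01. Classic targets (0.92), glycolysis (0.46) and collagens (0.41) are at the top, and replication-dependent histones (-0.47) and G2/M (-0.30) at the bottom.

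Some genes of the extracellular matrix and its receptors rose. Of 30 collagen genes tested, 7 rose and none fell, against 5.83% and 1.43% of all genes tested, with a median of 0.41 (0.30 and 5 higher with the GC trend removed). COL5A1, which nucleates collagen fibrils, was at 27.1, 23.8, 25.6 and 29.99 CPM in the normoxia libraries and 59.8, 44.3, 61.2 and 54.7 CPM in the hypoxia libraries (log2 fold change 1.05, SE 0.10, edgeR adjusted p = 8.52e-05). COL8A2 (1.905 ± 0.324 to 3.51 ± 0.297 CPM, log2 fold change 0.88 ± 0.14) and COL16A1 (1.32 ± 0.239 to 2.29 ± 0.5897 CPM, log2 fold change 0.79 ± 0.20) followed at lower levels, and COL4A2 of the basement membrane, the most abundant, passed the adjusted p but not the fold (244 ± 15.8 CPM under normoxia and 339 ± 40.4 CPM under hypoxia). COL4A2 was called higher without normoxia replicate 4 or hypoxia replicate 2, and in the list 1 member was called lower without hypoxia replicate 2 or 3. A library left out decided the call of COL16A1 without normoxia replicate 1 or hypoxia replicate 3 (0.71). Of 30 integrin and laminin genes 7 rose and none fell, with a median of 0.17. LAMA5, the laminin alpha chain of epithelial basement membranes, was at 682, 560.2, 614 and 742 CPM in the normoxia libraries and 1119, 791, 1209.9 and 1138 CPM in the hypoxia libraries (log2 fold change 0.71, SE 0.13, edgeR adjusted p = 0.00248). ITGB4, the beta subunit that binds laminin, was at 191, 198, 194 and 236 CPM in the normoxia libraries and 426, 344, 414 and 402 CPM in the hypoxia libraries (log2 fold change 0.95, SE 0.08, edgeR adjusted p = 4.6e-05). ITGB3 (1.55 ± 0.296 to 3.47 ± 0.579 CPM, log2 fold change 1.17 ± 0.17) pairs with the alpha V subunit. No group of these 3 overlapped the other. ITGA3, the most abundant, was at 945 ± 57.3 CPM under normoxia and 1114 ± 83.8 CPM under hypoxia with overlapping groups. Without normoxia replicate 1, hypoxia replicate 1 or hypoxia replicate 4, 4 members of the list were called higher. ITGA2B, ITGA9 and LAMA2, outside the naming rule, lost their calls there and also without normoxia replicate 4 and with no filter. ITGA9 (1.12) and LAMA2 (0.56) were not called with hypoxia replicates 3 and 4 only, nor ITGA2B (0.96) with the GC trend removed.

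Matrix proteases and their inhibitors moved both ways. Of 35, 5 rose and 2 fell, with a median of 0.02. PLAT led the gains, followed by ADAMTS16 (26.1 ± 1.24 to 51.99 ± 4.47 CPM, log2 fold change 1.00 ± 0.07), ADAMTS15 (27.3 ± 1.83 to 40.1 ± 4.605 CPM, log2 fold change 0.55 ± 0.08), and, outside the naming rule and chosen after their values were seen, ADAMTS7 (1.31 ± 0.267 to 1.88 ± 0.2197 CPM, log2 fold change 0.52 ± 0.17) and MMP10 (0.1095 ± 0.0478 to 0.257 ± 0.0646 CPM, log2 fold change 1.20 ± 0.40), the last of these under 1 CPM in both groups. MMP16 and MMP3 (8.14 ± 1.24 to 4.61 ± 0.484 CPM, log2 fold change -0.82 ± 0.13) fell, and MMP1, the collagenase that was the most abundant member, was at 792 ± 48.5 CPM under normoxia and 722 ± 59.4 CPM under hypoxia with overlapping groups. The limits were no longer passed by ADAMTS7 without normoxia replicates 1, 2 and 3 or hypoxia replicates 2, 3 and 4 (0.42 to 0.55) and MMP10 without normoxia replicates 1, 2 and 4 or hypoxia replicates 1, 2, 3 and 4 (1.02 to 1.28). After the GC trend was removed, ADAMTS15 (0.44) and ADAMTS7 (0.36) were not called. With hypoxia replicates 3 and 4 only, ADAMTS7 (0.62) and MMP10 (1.01) were not called. ADAMTS7 (0.51) and MMP10 (1.19) were not called with no filter. The contractile cytoskeleton had a small shift. Of 28 genes, TAGLN (39.6 ± 4.09 to 67.6 ± 3.83 CPM, log2 fold change 0.77 ± 0.08), ACTA2 (3.69 ± 0.542 to 6.19 ± 0.431 CPM, log2 fold change 0.75 ± 0.12) and TPM2 (25.4 ± 1.69 to 39.3 ± 1.56 CPM, log2 fold change 0.63 ± 0.06), all of smooth muscle type contraction, rose and none fell (median 0.13), with per-library medians from -0.03 to 0.03 in the normoxia libraries and from 0.13 to 0.17 in the hypoxia libraries. ACTB was at 6031 ± 254 CPM under normoxia and 5926 ± 304 CPM under hypoxia.

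**Figure D4:**
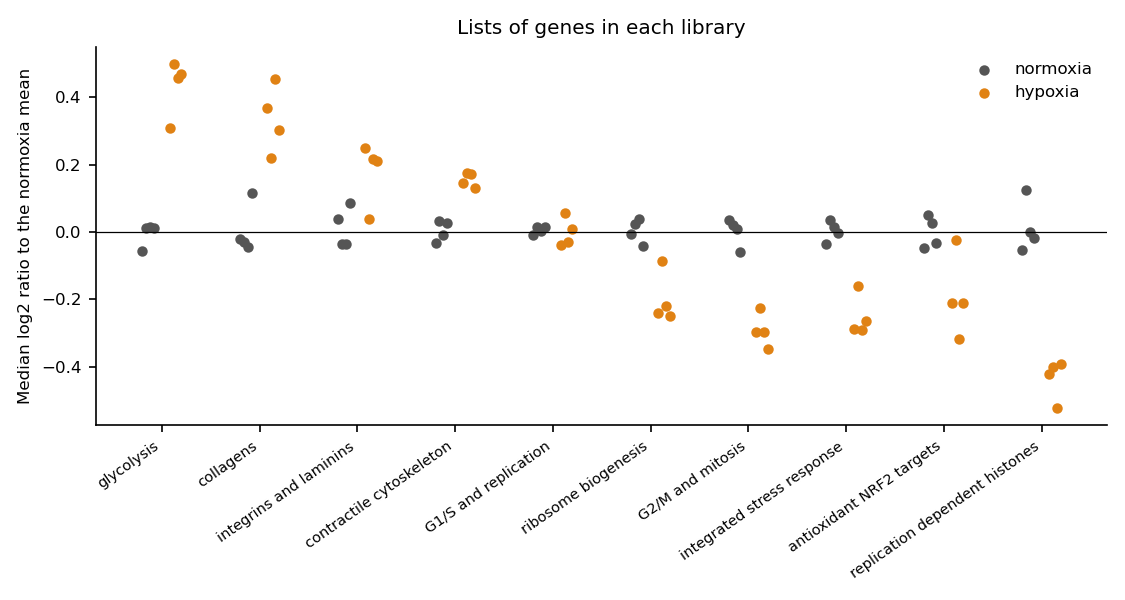
For 10 lists, the median over members of the log2 ratio of each library to the mean of the normoxia libraries, with 1 point per library. The hypoxia libraries lie above all normoxia libraries for glycolysis, collagens and the contractile cytoskeleton. They overlap them for integrins and laminins, for G1/S and for NRF2 targets, and lie below them for ribosome biogenesis, G2/M, the integrated stress response and histones.

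Among secreted signals, PGF, PDGFB and latent TGF-beta binding proteins rose. Of 28 growth factors and receptors outside the classic list, 5 rose and 1 fell (median 0.04). PGF, the placental growth factor that binds FLT1, was at 12.6, 15.5, 15.3 and 16.99 CPM in the normoxia libraries and 30.7, 27.1, 29.7 and 28.3 CPM in the hypoxia libraries (log2 fold change 0.94, SE 0.09, edgeR adjusted p = 6.11e-05). PDGFB (1.91 ± 0.215 to 3.62 ± 0.338 CPM, log2 fold change 0.92 ± 0.13) recruits pericytes, and IGFBP6 (37.9 ± 5.17 to 63.3 ± 2.55 CPM, log2 fold change 0.74 ± 0.09) and IGFBP3 (26.1 ± 0.816 to 41.99 ± 5.38 CPM, log2 fold change 0.68 ± 0.08) bind insulin-like growth factors. FLT1 was called higher at a level under 1 CPM (0.104 ± 0.0228 CPM under normoxia and 0.265 ± 0.0686 CPM under hypoxia), and IGFBP3 and FLT1 lie outside the naming rule and were chosen after their values were seen. EREG (36.1 ± 4.08 to 23.7 ± 2.17 CPM, log2 fold change -0.61 ± 0.09), a ligand of the EGF receptor, was the member that fell, and AXL, the most abundant receptor, was at 1137 ± 21.8 CPM under normoxia and 1199 ± 39.3 CPM under hypoxia. Left out in turn, single libraries ended the call of FLT1 without normoxia replicates 3 and 4 or hypoxia replicate 1 (1.15 to 1.28). FLT1 (1.05) was not called with hypoxia replicates 3 and 4 only. EREG (-0.40) was not called with the GC trend removed. Of 25 genes of TGF-beta signalling, 3 rose, LTBP3 (31.2 ± 3.01 to 60.9 ± 1.56 CPM, log2 fold change 0.96 ± 0.07) and LTBP2 (12.1 ± 0.991 to 19.6 ± 3.74 CPM, log2 fold change 0.70 ± 0.13), which belong to the family of latent TGF-beta binding proteins, and SMAD6 (2.22 ± 0.298 to 3.64 ± 0.391 CPM, log2 fold change 0.71 ± 0.13), an inhibitory SMAD, and 9 passed the adjusted p alone in the higher direction and 4 in the lower (median 0.07, and 0.02 with 1 called lower with the GC trend removed). Without normoxia replicate 1, normoxia replicate 3 or hypoxia replicate 3, 1 member of this list was called lower. Of 18 YAP/TAZ targets, F3 (380.3 ± 8.06 to 575 ± 28.5 CPM, log2 fold change 0.60 ± 0.05), tissue factor, rose, and CCN1, the most abundant, was at 1808 ± 39.3 CPM under normoxia and 1913 ± 34.2 CPM under hypoxia. Without hypoxia replicate 2, 2 members of that list rose.

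Receptor pathways of development gave scattered calls. Of 27 Wnt and Notch genes, NOTCH3 (2.12 ± 0.286 to 5.52 ± 1.42 CPM, log2 fold change 1.38 ± 0.18) and DKK3 (2.12 ± 0.365 to 3.56 ± 0.558 CPM, log2 fold change 0.75 ± 0.16) rose and HES1 (4.46 ± 0.516 to 2.62 ± 0.334 CPM, log2 fold change -0.77 ± 0.13), a Notch target, fell, with a median of -0.07 (-0.17 with the GC trend removed). NOTCH3 was at 1.94, 1.86, 2.19 and 2.497 CPM in the normoxia libraries and 7.02, 3.79, 6.26 and 5.02 CPM in the hypoxia libraries (log2 fold change 1.38, SE 0.18, edgeR adjusted p = 0.000536), with every hypoxia library above normoxia. Of 35 axon guidance genes, SEMA4B (115 ± 7.399 to 202 ± 16.9 CPM, log2 fold change 0.81 ± 0.07), SEMA4G (5.998 ± 0.354 to 9.07 ± 1.04 CPM, log2 fold change 0.60 ± 0.10) and EFNA3 (4.51 ± 0.447 to 6.88 ± 0.702 CPM, log2 fold change 0.61 ± 0.11), an ephrin, rose, and SEMA3C (51.9 ± 3.41 to 34.8 ± 2.58 CPM, log2 fold change -0.57 ± 0.07) and NTN4 (30.99 ± 1.58 to 21.6 ± 2.59 CPM, log2 fold change -0.52 ± 0.08) fell, and 5 rose without hypoxia replicate 2. Leaving out 1 library ended the call of NTN4 without normoxia replicate 1 or hypoxia replicates 2 and 4 (-0.49 to -0.46). With the GC trend removed, EFNA3 (0.47), SEMA3C (-0.47) and NTN4 (-0.44) were not called. With counts divided by 4, NTN4 (-0.495) was not called. With hypoxia replicates 3 and 4 only, NTN4 (-0.49) was not called. Of 24 immediate early and MAPK feedback genes, DUSP1, the MAPK phosphatase, rose, at 163, 177, 162 and 176 CPM in the normoxia libraries and 298, 266, 297 and 276 CPM in the hypoxia libraries (log2 fold change 0.75, SE 0.06, edgeR adjusted p = 1.46e-05). Its hypoxia libraries were all above normoxia, the list's median was 0.06, and 2 members rose without normoxia replicate 4.

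Immune and inflammatory genes showed no common direction. Of 23 NF-kB targets, cytokines and chemokines, ICAM1 (24.2 ± 2.08 to 39.7 ± 0.763 CPM, log2 fold change 0.71 ± 0.06), an adhesion receptor for leukocytes, and CCL26 rose and CSF2 (2.397 ± 0.3598 to 1.57 ± 0.235 CPM, log2 fold change -0.61 ± 0.16) and IL6 fell; CCL26 and IL6, at means under 1 CPM or near it (0.542 ± 0.141 CPM under normoxia and 1.01 ± 0.255 CPM under hypoxia, and 1.26 ± 0.329 CPM under normoxia and 0.7198 ± 0.119 CPM under hypoxia), lie outside the naming rule and were chosen after their values were seen. The list's median was -0.07 (-0.15 with the GC trend removed). The call did not survive the loss of 1 library for CCL26 without normoxia replicates 1 and 2 or hypoxia replicates 1, 2 and 4 (0.75 to 0.88), CSF2 without normoxia replicates 2 and 4 (-0.56 to -0.54) and IL6 without normoxia replicate 1 or hypoxia replicate 3 (-0.74 to -0.63). CCL26 (0.65) was not called with hypoxia replicates 3 and 4 only. Of 27 interferon-response genes 4 fell and 2 rose, with a median of 0.02. IFIT1, which binds foreign RNA, was at 45.6, 46.7, 43.5 and 41.4 CPM in the normoxia libraries and 25.3, 32.7, 24.7 and 27.4 CPM in the hypoxia libraries (log2 fold change -0.69, SE 0.09, edgeR adjusted p = 0.000373), and IFIT2 (37.5 ± 0.631 to 23.6 ± 0.966 CPM, log2 fold change -0.66 ± 0.05), OAS2 (4.18 ± 0.211 to 2.71 ± 0.476 CPM, log2 fold change -0.63 ± 0.13) and IFI44L (2.77 ± 0.323 to 1.66 ± 0.441 CPM, log2 fold change -0.73 ± 0.19) fell too, OAS2 being outside the naming rule. IRF9 (1.71 ± 0.103 to 2.82 ± 0.782 CPM, log2 fold change 0.71 ± 0.19), a subunit of the factor that transduces the signal, and IFI27 (2.96 ± 0.5296 to 4.49 ± 0.639 CPM, log2 fold change 0.60 ± 0.16) rose at low levels, and B2M, of class I antigen presentation, was at 202 ± 8.404 CPM under normoxia and 191 ± 28.01 CPM under hypoxia with overlapping groups. Without 1 of the libraries, the call was lost for IFI44L without normoxia replicate 1 (-0.66), IRF9 without normoxia replicate 1 (0.67) and IFI27 without normoxia replicate 4 or hypoxia replicate 4 (0.48 to 0.54). IFIT2 (-0.49) and IFI44L (-0.49) were not called with the GC trend removed. With hypoxia replicates 3 and 4 only, IFI44L (-0.47), IRF9 (0.38) and IFI27 (0.53) were not called. Of 19 genes of complement and coagulation, C1R (1.59 ± 0.166 to 2.51 ± 0.237 CPM, log2 fold change 0.65 ± 0.13) and CFD (3.48 ± 0.403 to 4.99 ± 0.1803 CPM, log2 fold change 0.52 ± 0.11) rose and F2RL1 (180.0 ± 7.09 to 127 ± 6.28 CPM, log2 fold change -0.50 ± 0.05) fell. A library left out decided the call of CFD without normoxia replicate 1 or hypoxia replicate 1 (0.45 to 0.498) and F2RL1 without normoxia replicates 2 and 4 or hypoxia replicates 3 and 4 (-0.49 to -0.47). After the GC trend was removed, CFD (0.33) and F2RL1 (-0.43) were not called. With at least 10 counts in every library, F2RL1 (-0.49) was not called. F2RL1 (-0.48) was not called with counts divided by 4. Of 22 immune surface and adenosine genes, the call was TREM1, an activating receptor, outside the naming rule and barely detected (0.00822 ± 0.0164 CPM under normoxia and 0.161 ± 0.0918 CPM under hypoxia), and NT5E, the ecto-nucleotidase CD73, was at 872 ± 31.7 CPM under normoxia and 798 ± 48.1 CPM under hypoxia. Between 2 and 3 members of that list rose without normoxia replicate 2, normoxia replicate 4 or hypoxia replicate 4. TREM1 (3.95) was not called with hypoxia replicates 3 and 4 only.

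Transport of ions and amino acids gave few calls. Of 21 genes of pH and ion transport 3 rose and 2 fell (median 0.02). STC1 was at 13.8, 13.1, 12.5 and 17.3 CPM in the normoxia libraries and 57.8, 46.2, 48.9 and 45.6 CPM in the hypoxia libraries (log2 fold change 1.81, SE 0.11, edgeR adjusted p = 2.69e-06), with all hypoxia libraries above normoxia. CA12 (4.66 ± 0.591 to 6.78 ± 0.7701 CPM, log2 fold change 0.54 ± 0.12), a membrane carbonic anhydrase, and KCNMA1, a potassium channel under 1 CPM (0.233 ± 0.0561 CPM under normoxia and 0.514 ± 0.128 CPM under hypoxia) that lies outside the naming rule, rose, and SLC4A7 (56.3 ± 5.51 to 37.8 ± 5.34 CPM, log2 fold change -0.57 ± 0.10), a sodium bicarbonate carrier, and ATP2B1 (81.5 ± 5.24 to 56.7 ± 3.201 CPM, log2 fold change -0.52 ± 0.06), a calcium pump, fell. The limits were no longer passed by CA12 without normoxia replicates 2 and 3 (0.48 to 0.5), KCNMA1 without hypoxia replicate 4 (1.07) and ATP2B1 without normoxia replicate 1 or hypoxia replicate 4 (-0.48). SLC4A7 (-0.37) and ATP2B1 (-0.30) were not called with the GC trend removed. Of 21 carriers of amino acids and nucleosides, SLC1A1 (0.835 ± 0.112 to 1.73 ± 0.177 CPM, log2 fold change 1.06 ± 0.16), a glutamate carrier, and SLC6A8 (6.495 ± 0.168 to 10.6 ± 0.876 CPM, log2 fold change 0.70 ± 0.08), the creatine carrier, rose, SLC43A2 fell, and SLC38A1, the most abundant, had a log2 fold change of -0.38 (SE 0.07), short of the limit. In the Golgi list of 24 genes, FUT11, a fucosyltransferase, was at 19.2, 21.7, 19.7 and 20.8 CPM in the normoxia libraries and 49.7, 49.4, 48.3 and 54.3 CPM in the hypoxia libraries (log2 fold change 1.31, SE 0.06, edgeR adjusted p = 3.4e-07), with separate groups, and GALNT18 (19.97 ± 1.78 to 32.5 ± 1.15 CPM, log2 fold change 0.70 ± 0.07) and B3GNT4 (2.32 ± 0.8500 to 4.28 ± 1.02 CPM, log2 fold change 0.88 ± 0.24) rose too. Left out in turn, single libraries ended the call of B3GNT4 without normoxia replicates 2, 3 and 4 or hypoxia replicate 4 (0.77 to 0.88). With the GC trend removed, B3GNT4 (0.79) was not called. B3GNT4 (0.70) was not called with hypoxia replicates 3 and 4 only.

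Regulators of transcription and RNA held few calls. None of 31 chromatin modifiers was called (median -0.04), nor any of 24 oxygen-dependent demethylases and hydroxylases outside the classic list (median -0.09), of which ALKBH5, the RNA m6A demethylase, was the most abundant and passed the adjusted p alone (135 ± 7.04 CPM under normoxia and 185 ± 7.21 CPM under hypoxia, 0.46). Without hypoxia replicate 2, 1 of these was called lower. Of 29 splicing genes, CLK2 (18.4 ± 0.765 to 27.2 ± 1.098 CPM, log2 fold change 0.56 ± 0.06), a kinase of SR proteins, rose (median -0.09, and 0.04 with 2 higher with the GC trend removed). Of 27 transcription regulators, HIF1A, ZEB1 (62.3 ± 6.48 to 43.5 ± 3.54 CPM, log2 fold change -0.52 ± 0.08), which represses epithelial genes, and RUNX2 (7.97 ± 0.676 to 5.63 ± 0.643 CPM, log2 fold change -0.50 ± 0.11), of the RUNT family, fell, and TXNIP (79.9 ± 1.103 to 128 ± 10.4 CPM, log2 fold change 0.68 ± 0.06), the thioredoxin inhibitor that glucose induces, rose. Leaving out 1 library ended the call of ZEB1 without normoxia replicate 1 or hypoxia replicates 2 and 4 (-0.496 to -0.45) and RUNX2 without normoxia replicates 1, 2 and 4 or hypoxia replicates 2 and 4 (-0.496 to -0.44). ZEB1 (-0.35) and RUNX2 (-0.47) were not called with the GC trend removed. With counts divided by 4, ZEB1 (-0.499) and RUNX2 (-0.48) were not called. In DESeq2, RUNX2 (-0.499) was not called. RUNX2 (-0.48) was not called with at least 10 counts in every library. With hypoxia replicates 3 and 4 only, RUNX2 (-0.43) was not called. The zinc finger genes of the Kruppel type were too many to be read singly. Of 476 tested, 9 rose and 2 fell, a lower share on the higher side than the 5.83% of all genes tested (median 0.02), 18 rose and 2 fell with the GC trend removed, and the number lower went from 1 without normoxia replicate 1 to 8 without hypoxia replicate 2. Among the expressed members that were called, ZNF160 (15.1 ± 1.38 to 26.2 ± 1.17 CPM, log2 fold change 0.80 ± 0.07) had the highest fold. The highest of all members tested was 1.39. ZNF395, the most abundant member, was at 149 ± 5.58 CPM under normoxia and 199.7 ± 15.1 CPM under hypoxia.

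The circadian list was small and mixed. Of 14 genes, 3 fell and 2 rose, with a median of -0.25 (-0.14 with the GC trend removed). RORA, the nuclear receptor that activates BMAL1, was at 0.739, 0.676, 0.563 and 0.874 CPM in the normoxia libraries and 2.87, 2.24, 2.37 and 2.31 CPM in the hypoxia libraries (log2 fold change 1.78, SE 0.17, edgeR adjusted p = 7.21e-05). CIART (1.08 ± 0.244 to 2.14 ± 0.3803 CPM, log2 fold change 0.99 ± 0.19), a repressor of the clock, rose as well. TEF (11.4 ± 0.736 to 6.94 ± 0.538 CPM, log2 fold change -0.71 ± 0.09), a PAR-type bZIP factor, PER2 (6.26 ± 0.793 to 4.12 ± 0.524 CPM, log2 fold change -0.60 ± 0.13) and PER3 (19.4 ± 1.13 to 13.6 ± 1.46 CPM, log2 fold change -0.51 ± 0.08) fell, and NR1D2, the most abundant, was short of the limit (-0.31, SE 0.06, and -0.12 with the GC trend removed). BHLHE40 and BHLHE41, clock repressors on the classic list, rose by 1.21 and 0.91 on the log2 scale. The call did not survive the loss of 1 library for PER3 without normoxia replicates 1 and 4 or hypoxia replicate 2 (-0.49 to -0.46). PER2 (-0.45) and PER3 (-0.41) were not called with hypoxia replicates 3 and 4 only. After the GC trend was removed, PER3 (-0.38) was not called. With at least 10 counts in every library, PER3 (-0.49) was not called. PER3 (-0.48) was not called with counts divided by 4.

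The mRNAs of the pathway that the study followed and that are given here held no call. CCAR2, which encodes DBC1, was at 143, 144, 145 and 152 CPM in the normoxia libraries and 148, 142, 153 and 149 CPM in the hypoxia libraries (log2 fold change 0.02, SE 0.05, edgeR adjusted p = 0.802). The ubiquitin ligase gene SIAH2 had a log2 fold change of 0.14 (SE 0.06) and the deubiquitinase gene OTUD5 of 0.01 (SE 0.05), both with overlapping groups. SIRT1, the deacetylase that DBC1 inhibits, was at 31.6, 30.3, 29.7 and 28.4 CPM in the normoxia libraries and 22.4, 24.3, 25.5 and 20.1 CPM in the hypoxia libraries (log2 fold change -0.38, SE 0.07, edgeR adjusted p = 0.0044). Its groups did not overlap, and its log2 fold change was short of the limit and was -0.21 (edgeR adjusted p = 0.0425) with the GC trend removed.

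Called genes also shared a property of sequence. The expressed genes were split into quartiles of the GC content of their annotated transcripts, from 23.1% to 43.98% in the lowest and from 57.1% to 83.9% in the highest. In the lowest quartile 64 of 3470 genes rose (1.84%) and 132 fell (3.804%), and in the highest 461 of 3469 rose (13.3%) and 9 fell (0.259%). The median GC content was 57.7% for the genes called higher, 43.3% for those called lower and 49.7% for all expressed genes. The order held at each level of expression: among genes at 100 CPM or more, the median log2 fold change went from -0.23 in the lowest quartile to 0.06 in the highest, and between 1 and 10 CPM from -0.06 to 0.28. The gradient was present in each hypoxia library. Relative to the mean of the normoxia libraries, the median log2 ratio of the highest quartile minus that of the lowest was 0.28, 0.18, 0.38 and 0.41 in hypoxia replicates 1 to 4. In normoxia it was -0.14, 0.02, 0.03 and 0.09, so the libraries of 1 condition differed along the same axis, though less than the conditions did. Whether the gradient arose in the cells or in the preparation of the libraries was not tested. Removing a smooth trend on GC content from each library left 807 expressed genes higher, 678 of them among the 874, and 120 lower, 91 of them among the 246. Higher genes then made up 87.1% of the calls on expressed genes, against 78.04% before. The higher calls still rose from 3.98% to 8.100% over the quartiles, and the lower calls went from 0.749% to 0.9801%. Calls also differed between chromosomes. On chr19, 87 of 1015 expressed genes rose and 3 fell, and on chr4 and chr13, 13 of 502 and 5 of 237 rose and as many fell. The GC content of chromosomes was not measured here, and its part in these counts was not tested.

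**Figure D5:**
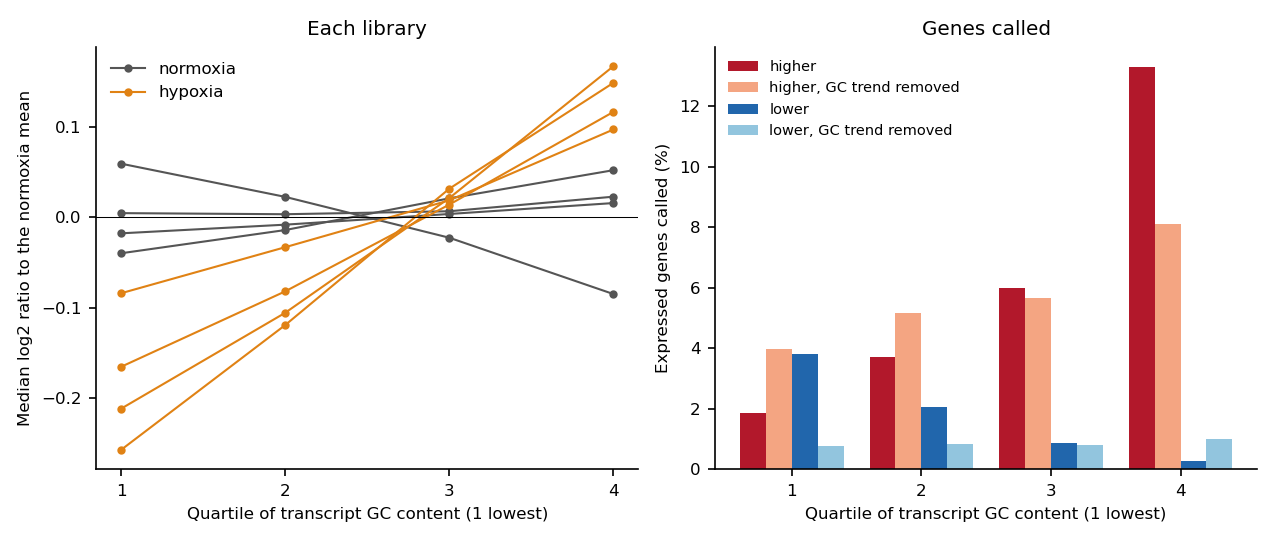
Left, the median over expressed genes of each library's log2 ratio to the normoxia mean in each quartile of transcript GC content, with 1 line per library. Right, the percent of expressed genes called higher or lower in each quartile, before and after the GC trend was removed. The 4 hypoxia lines climb from between -0.26 and -0.08 in the lowest quartile to between 0.10 and 0.17 in the highest, and the share called lower falls from 3.804% to 0.259%.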

How the data were processed

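RNA was sequenced from WT MDA-MB-231 cells in 4 normoxia and 4 hypoxia libraries. The values deposited by the authors are expected counts, given per gene as integers without scaling for depth. The authors aligned reads with Hisat2 and quantified genes with StringTie per the methods, while the submitters' processing notes name HISAT2, SAMtools and featureCounts; extraction reagent and library kit also differ between labels and methods, and the build, annotation and strand setting are not given in the sources used here. Values of 4 were more frequent than values of 3 or 5 in each library, so the counts are treated as estimates.

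Counts were fitted with edgeR 4.0.16 in R 4.3.3 (TMM, filterByExpr, glmQLFit, glmQLFTest, Benjamini-Hochberg adjustment over all genes tested) on the 8 libraries, grouped by their labels. The table's 4 other columns, of CCAR2 knockout libraries, were not used here. The test was tested on simulated data before use. Genes called have an adjusted p under 0.05 and a log2 fold change of 0.5 or more in size, the limits of the methods. Lists were described by counts and medians with no test. Named genes were the 15 highest and 15 lowest folds among expressed genes called with a symbol and no overlap, the classic targets left out. Also named were the 8 largest gains and the 8 largest losses in CPM among genes called. The rest were up to 3 called members per list and direction with the most abundant member, and genes of the study's pathway. Some genes that these rules name and 1 list are not reported here. The lists and rules were chosen with earlier results of these data known. GC content is of GENCODE 29 transcripts (GRCh38), and the trend removed was a lowess curve (span 0.3) of each library's log2 ratio. Alternatives were DESeq2 1.42.0, RLE normalization, other filters, the GC trend, a replicate block, each library left out, counts divided by 4 and hypoxia replicates 3 and 4 only.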

Additional observations from a re-analysis of the deposited data

Results flagged for a closer look

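In 25 of 360 groups of 4 libraries, the CPM of the highest or lowest library lay apart from the other 3 by a gap that, divided by the range of the group, was above Dixon's 95% limit. Chance flags about 1 in 20 such groups, here 18. Normoxia replicate 1 lay below the other 3 libraries of its group for ALDOA (ratio 0.841, 889 CPM against 1093 to 1131 CPM), ENO1 (ratio 0.941, 2832 CPM against 3064 to 3079 CPM), CALR (ratio 0.899, 903 CPM against 981 to 990.3 CPM), GDF15 (ratio 0.843, 3.84 CPM against 5.03 to 5.25 CPM), BCL2L1 (ratio 0.857, 629 CPM against 654 to 658 CPM) and SQSTM1 (ratio 0.867, 189 CPM against 207 to 209.8 CPM). Normoxia replicate 1 lay above the other 3 libraries of its group for SLC7A11 (ratio 0.843, 107 CPM against 86.7 to 89.9 CPM), B3GNT4 (ratio 0.845, 3.58 CPM against 1.78 to 2.06 CPM) and NR1D2 (ratio 0.875, 98.8 CPM against 86.4 to 87.96 CPM). Hypoxia replicate 2 lay above the other 3 libraries of its group for C1QL1 (ratio 0.842, 11.3 CPM against 8.404 to 8.86 CPM), NPM1 (ratio 0.956, 1715 CPM against 1246 to 1267 CPM), HSP90AB1 (ratio 0.8300, 2135 CPM against 1839 to 1889 CPM), B2M (ratio 0.834, 233 CPM against 171 to 181 CPM), XRCC6 (ratio 0.844, 616 CPM against 493 to 512 CPM) and KRT19 (ratio 0.839, 882 CPM against 744 to 766 CPM). Hypoxia replicate 1 lay below the other 3 libraries of its group for RIMKLA (ratio 0.992, 3.003 CPM against 3.91 to 3.92 CPM) and CA12 (ratio 0.843, 5.63 CPM against 6.995 to 7.25 CPM). Hypoxia replicate 1 lay above the other 3 libraries of its group for RPL34P18 (ratio 0.919, 8.69 CPM against 3.64 to 4.05 CPM) and CFD (ratio 0.854, 5.26 CPM against 4.87 to 4.93 CPM). Normoxia replicate 2 lay above the other 3 libraries of its group for H2BC12 (ratio 0.881, 112 CPM against 105 to 106 CPM), MT1A (ratio 0.838, 1.37 CPM against 1.01 to 1.07 CPM) and SLC6A8 (ratio 0.975, 6.75 CPM against 6.41 to 6.42 CPM). Hypoxia replicate 4 lay below the other 3 libraries of its group for ATP2B1 (ratio 0.845, 51.95 CPM against 57.9 to 58.96 CPM) and OTUD5 (ratio 0.833, 41.1 CPM against 43.1 to 43.5 CPM). Normoxia replicate 4 lay above the other 3 libraries of its group for ITGB4 (ratio 0.842, 236 CPM against 191 to 198 CPM). Normoxia replicate 1 and hypoxia replicate 2 held the most such values. The causes were not tested.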

How the results depend on the processing

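With the GC trend removed, 165 of all genes tested and 120 expressed genes were lower, against 312 and 246, and 1197 and 807 were higher, against 1270 and 874; the trend's cause was not tested. In DESeq2 1.42.0, with RLE normalization, with no filter, with at least 10 counts in every library and with counts divided by 4, between 779 and 973 expressed genes were higher and between 201 and 282 lower, all within 1.5 times the reported counts. Leaving out each library in turn gave 1046 to 1445 genes higher and 236 to 398 lower, and among expressed genes 773 to 960 higher and 197 to 306 lower. With hypoxia replicates 3 and 4 only, an alternative chosen after seeing the data like the division by 4, 1005 expressed genes were higher and 350 lower. Of 200 called genes that were named or on a list, 140 kept their call in every setting in which they were tested, 44 lost it when 1 library was left out and 49 under another setting, some of them in both, and the GC correction ended 34 calls. No named gene changed its direction past a limit in any of these settings.

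The replicate numbers did not pair the libraries: the correlations of same-numbered deviations from the group means were 0.108, 0.163, -0.146 and -0.0433. With a replicate block, 1183 genes were higher and 324 lower, and 873 and 265 among expressed genes, and of the 200 genes it ended 7 calls. Not every library correlated best with its own number. Depth limits the genes under 1 CPM most, where hypoxia replicates 1 and 2 hold the fewest counts.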
